A study of Drosophila melanogaster with 3 samples.

Results

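Of the 5786 az2-GFP peaks that passed the irreproducible discovery rate (IDR), 729 lay upstream in a divergent promoter. A peak was taken when its summit was within 500 bp of the nearest annotated transcription start site (TSS), on the upstream side of that TSS, and when a TSS of another gene on the opposite strand lay within 500 bp further upstream. Such a summit lies by this rule between both start sites, at most 250 bp from the nearer one. The 729 members made up 12.6% of the IDR peaks (exact binomial 95% interval 11.8 to 13.5). They stood between 683 pairs of genes and touched 1365 genes. Both genes were protein-coding at 698 members, and an ncRNA gene was on at least one side of 27.

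The peaks came from chromatin immunoprecipitation with sequencing of Drosophila melanogaster embryos aged 0 to 16 h, males and females pooled, from a transgenic line that stably expresses az2 with GFP at its C-terminus. An antibody against GFP was used. The 3 replicates formed 1 group, all carrying the transgene, so there was no comparison of genotypes or treatments. Peaks were called by the authors against a control alignment, which was not analysed here.

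In a divergent promoter, a pair of genes on opposite strands starts from start sites that face away from each other, and the stretch between them serves both. The compact Drosophila genome holds many such pairs, often of broadly expressed genes. Their core promoters tend to carry sequence elements other than the TATA box, among them Motif 7, Motif 1 and the DNA replication-related element (DRE), which binds DREF. az2 is a zinc finger protein. Motif 7 here stands for the words CAGCNCTA, CAGCNCTG, CATCNCTA and CATCNCTG.

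The stretches between both start sites are shown for the 6 members of highest signal whose gap was at most 300 bp long and free of annotated exons, because they are the clearest examples of a peak between such genes. The bases are from the dm6 genome (RefSeq), read on the plus strand. The gene named first starts at the left end on the minus strand, and the gene named second starts at the right end on the plus strand. Capitals mark matches on either strand to Motif 7, to the ZIPIC word AGGGNTG or to the DRE word TATCGATA. The intervals are chr3R:15229409-15229664, chr3L:5139396-5139618, chr3L:19612200-19612454, chr2L:8376798-8377034, chr3L:9426759-9427009 and chr3R:8650797-8651083, in the order of the lines.
Art3–mRpS10: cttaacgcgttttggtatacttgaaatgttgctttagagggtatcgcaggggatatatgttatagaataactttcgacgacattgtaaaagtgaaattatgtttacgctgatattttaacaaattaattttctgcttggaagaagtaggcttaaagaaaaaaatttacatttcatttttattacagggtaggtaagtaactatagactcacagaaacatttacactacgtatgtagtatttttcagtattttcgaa
Tcs5–CHMP2B: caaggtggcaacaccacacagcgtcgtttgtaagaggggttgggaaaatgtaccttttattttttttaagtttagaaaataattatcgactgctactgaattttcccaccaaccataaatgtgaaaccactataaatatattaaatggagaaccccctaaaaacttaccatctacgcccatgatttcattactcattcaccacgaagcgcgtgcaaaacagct
Lon–PIG-F: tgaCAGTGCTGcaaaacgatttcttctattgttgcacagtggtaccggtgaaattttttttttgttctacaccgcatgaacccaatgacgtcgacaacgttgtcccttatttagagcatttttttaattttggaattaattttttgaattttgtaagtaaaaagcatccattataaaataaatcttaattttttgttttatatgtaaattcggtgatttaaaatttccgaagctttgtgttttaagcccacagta
CG13390–CG17294: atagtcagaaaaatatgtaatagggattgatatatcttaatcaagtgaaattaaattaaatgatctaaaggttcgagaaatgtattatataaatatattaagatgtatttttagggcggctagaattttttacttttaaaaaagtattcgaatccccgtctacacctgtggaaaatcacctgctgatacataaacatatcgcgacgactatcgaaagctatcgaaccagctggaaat
Atat–Shc: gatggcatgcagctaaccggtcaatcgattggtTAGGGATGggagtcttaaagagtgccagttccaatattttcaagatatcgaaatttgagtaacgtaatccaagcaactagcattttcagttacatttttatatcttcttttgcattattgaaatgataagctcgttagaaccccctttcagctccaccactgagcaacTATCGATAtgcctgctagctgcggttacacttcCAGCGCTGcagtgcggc
Mkk4–SLIRP2: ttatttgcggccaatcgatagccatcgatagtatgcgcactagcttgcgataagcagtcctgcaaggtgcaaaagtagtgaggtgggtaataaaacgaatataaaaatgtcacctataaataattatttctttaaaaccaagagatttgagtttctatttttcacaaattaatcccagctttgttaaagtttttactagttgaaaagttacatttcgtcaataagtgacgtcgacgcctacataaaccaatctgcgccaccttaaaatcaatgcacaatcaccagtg

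In 4 of these 6 gaps, including the first and second in signal, none of the words was found. The Lon–PIG-F gap held CAGTGCTG, a Motif 7 match on the strand of Lon, 3 bases from its start site. The Atat–Shc gap held TAGGGATG, a Motif 7 match on the strand of Atat that overlaps a ZIPIC match, the palindrome CAGCGCTG 9 bases from the start of Shc, and 1 DRE. The summit of that gap lay at base 125 of 251, away from all of them.

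A second pair of gaps, chosen after the positions of the matches had been seen, shows the arrangement described below, with Motif 7 beside both start sites and on the strand of each. 1 large chromosome arm was left out of this search. Among members of the other arms with a gap of at most 300 bp free of exons it was found in 14, and those of highest signal after Atat–Shc are given. They lie at chr3L:6488425-6488680 and chr3R:5654862-5655138 of dm6, again on the plus strand with the same capitals.
CG10147–Bulli: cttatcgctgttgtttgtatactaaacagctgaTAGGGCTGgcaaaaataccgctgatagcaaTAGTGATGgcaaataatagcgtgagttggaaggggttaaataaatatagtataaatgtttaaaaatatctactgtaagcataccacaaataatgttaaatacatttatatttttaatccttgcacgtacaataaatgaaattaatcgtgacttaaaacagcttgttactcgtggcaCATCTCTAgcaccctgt
elm–MED27: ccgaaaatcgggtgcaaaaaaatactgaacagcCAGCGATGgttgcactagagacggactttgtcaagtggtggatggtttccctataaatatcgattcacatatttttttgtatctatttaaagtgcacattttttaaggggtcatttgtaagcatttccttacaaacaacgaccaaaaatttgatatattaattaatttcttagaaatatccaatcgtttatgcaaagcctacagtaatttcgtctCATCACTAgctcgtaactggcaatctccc

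The CG10147–Bulli gap held TAGGGCTG and TAGTGATG 33 and 63 bases from the start of CG10147 and CATCTCTA 9 bases from the start of Bulli, with its summit at base 174 of 256. The gap of elm and MED27, a subunit of the Mediator coactivator, held CAGCGATG 33 bases from the start of elm and CATCACTA 21 bases from the start of MED27, with its summit at base 142 of 277. In both gaps the summit was more than 60 bp from every one of these matches.

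The deposited signal value of a peak is the authors' own score, taken here as linear since its caller is not given in the sources used here, and says nothing of read depth, which is unknown here because the lists hold no counts. It ran over different ranges in each list, so replicates are compared by rank. To give lists of equal length, only the 5786 strongest peaks of each replicate were kept, as many as passed IDR. In these lists 566 members (77.6%, interval 74.4 to 80.6) had their summit inside a peak of all 3 replicates, against 76.1% of other upstream peaks and a background of 72.6% of all IDR peaks. A further 121 members were covered by 2 replicates and 41 by 1. The summit of 1 member, between Asciz and CG32280, was in none of the reduced lists. In the whole lists 711 members (97.5%) were covered 3 times, and the summits of the 3 covering peaks then spanned a median of 44 bp.

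Members had a median signal of 274, with a range of 134 to 2932, against a median of 256 for the other 1501 upstream peaks. In the top quartile of IDR peaks by signal were 254 members (34.8%), against 30.6% of the other upstream peaks. In replicates 1, 2 and 3 the members' median percentile of signal was 92.3, 90.6 and 92.2, against 91.6, 88.7 and 91.9 for other upstream peaks. The difference of 0.97 ± 0.80 percentile points (SD, n = 3) was positive in 3 of 3 replicates and gave p = 0.25 in an exact two-sided sign-flip permutation test, the smallest p that 3 replicates allow. Over IDR peaks above the median signal of the list the difference was -0.053, so its direction does not hold among strong peaks. Without replicate 2 it was 0.168, and with a limit of 1000 bp between the start sites 0.148.

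The peak of highest signal among the members lay between Art3, an arginine methyltransferase, and mRpS10, a protein of the small subunit of the mitochondrial ribosome. Its signal was 628, 1320.2 and 1000.4 in replicates 1, 2 and 3, which placed it 8, 8 and 7 in rank of the whole lists. The next was between CenG1A, a GTPase-activating protein, and another mitochondrial ribosomal protein gene, mRpS23, with signals of 612, 1275 and 952 at ranks 9, 10 and 10. The third stood between Tcs5, a kinase known from yeast for its part in a tRNA modification, and CHMP2B, a subunit of the membrane-cutting ESCRT-III complex, with signals of 565, 1317 and 895 at ranks 14, 9 and 11. The same 3 peaks thus came close to the top of every list, though the signal in replicate 2 was always the highest and in replicate 1 the lowest.

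Below them stood CG5611 with Mtl, a Rac-like GTPase, with signals of 516, 985 and 752 at ranks 17, 17 and 18. The gap of Lon, a mitochondrial protease, and PIG-F, an enzyme of glycosylphosphatidylinositol (GPI) anchor synthesis, had signals of 433, 823 and 630.0 at ranks 32, 31 and 35. PIG-G, of the same synthesis, with CG1602 had signals of 474, 821 and 722 at ranks 26, 33 and 26. Both genes of GPI anchor synthesis were thus among the 35 strongest peaks of every replicate. The ranks of Atat, an α-tubulin acetyltransferase, and Shc, a signalling adaptor, spread more, with signals of 331, 882 and 557 at ranks 70, 24 and 54. CG13390 with CG17294 had ranks 47, 43 and 37. Pal1 with Pdrg1 had ranks 41, 35 and 52. SLIRP2, an RNA-binding protein, with Mkk4, a kinase of the JNK pathway, had ranks 42, 45 and 48, so these 3 stayed within about the same range. In all of the 15 highest members every replicate placed the peak among its 134 strongest, and the lowest of these placings belonged to CG7988 with CG7183.

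**Figure D1:**
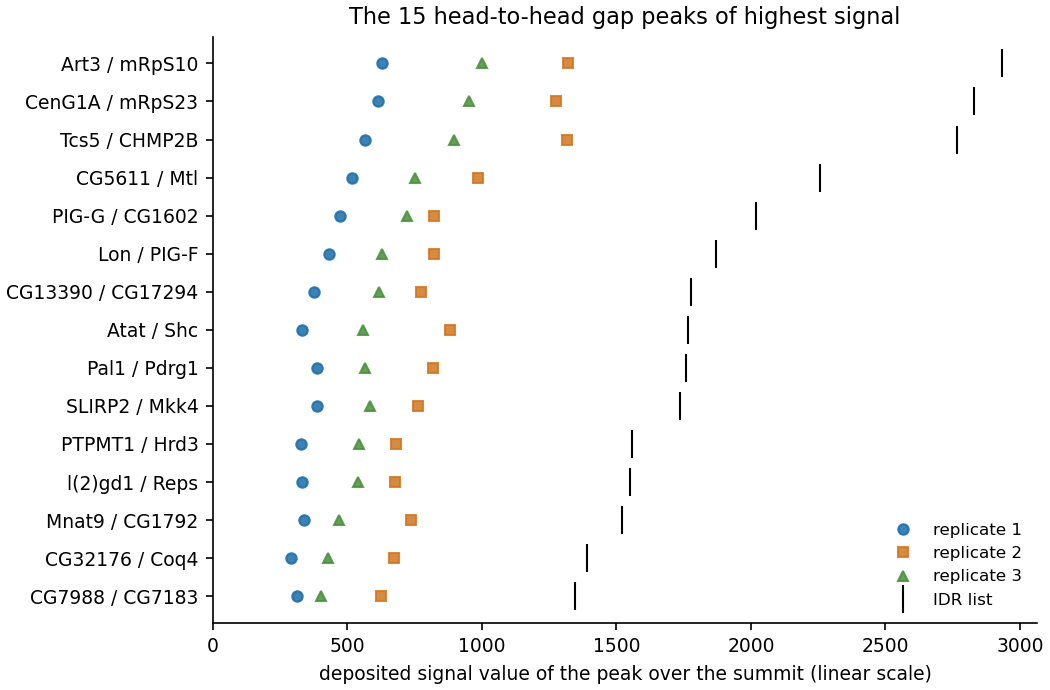
Deposited signal (horizontal, linear axis) of the peak over the summit in replicates 1 to 3 (circles, squares, triangles) and in the IDR list (black bars) for the 15 members of highest signal, named by nearest gene and partner. Replicate 2 is highest and replicate 1 lowest for each of the 15.

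The other 5 of these 15 were PTPMT1 with Hrd3, a factor of protein degradation at the endoplasmic reticulum, at ranks 72, 61 and 57, l(2)gd1 with Reps at ranks 68, 62 and 60, Mnat9 with CG1792, CG32176 with Coq4, and CG7988 with CG7183. Coq4, of ubiquinone synthesis, with CG32176 had ranks 105, 63 and 112, and CG7988 with CG7183 had 83, 69 and 134. In both, replicate 2 placed the peak higher than the other replicates did. The Mnat9 gap was the only narrow one among the 15, at 143 bp, with ranks 66, 48 and 90, and its summit was 2 bp from the nearest TSS.

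Among the 250 strongest members the 3 whose percentile differed most between replicates all had a cytosolic ribosomal protein gene on one side. The peak between RpL4 and the splicing factor gene BCAS2 had a signal of 155, 79.9 and 152 in replicates 1, 2 and 3, at percentiles of 98.4, 83.8 and 96.2. RpL14 with Nelf-E, a subunit of the pausing factor NELF, had signals of 158, 106 and 114.9 and stood at percentiles of 98.5, 88.7 and 93.8, and RpL41 with the sodium channel gene NaCP60E had 147, 122 and 119 at percentiles of 98.2, 90.6 and 94.2. In each of them replicate 1 was high and replicate 2 low. Over the 25 members with a cytosolic ribosomal protein gene the median percentile was 96.4, 86.2 and 92.9, and 22 of 25 (88.0%) were higher in replicate 1 than in replicate 2, against 500 of all 729 members (68.6%), whose medians were 92.3, 90.6 and 92.2. The 28 members with a mitochondrial ribosomal protein gene had medians of 91.5, 86.6 and 90.8, and 24 of them were higher in replicate 1. The same order was about as frequent at some other lists. It was found at 9 of 9 members of nuclear pore and transport genes, 6 of 6 of proteasome and 6 of 7 of vacuolar ATPase genes. It was rarer at others, such as 6 of 12 of DNA repair, 3 of 6 of Mediator and 1 of 5 of chaperone genes. Percentiles were taken over whole lists, of 30000 peaks in replicate 1 and 22372 in replicate 2. Equal ranks thus give a lower percentile in replicate 2. Nup160 with Csl4 counts among the 9 at ranks of 253 and 252. RpL4, RpL14 and RpL41 had ranks of 478, 456 and 540 in replicate 1 and 3629, 2522 and 2113 in replicate 2. The cause of the order was not tested.

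The members of lowest signal were those of Stip1, a co-chaperone of Hsp70 and Hsp90, with the splicing factor U2af38 (134), CG14079 with Naxd (134) and CG3719 with CG32813 (134). Stip1 with U2af38 had ranks of 6957, 5031 and 6830 in the whole lists, and CG3719 with CG32813 had 6402, 7329 and 4571, so each was covered by 1 reduced list. CG14079 with Naxd had ranks of 1855, 1478 and 2105, and these are the ranks of whichever peak covered the summit, so they need not belong to the same summit. Just inside the limit of 500 bp between the start sites were Polr2I, a subunit of RNA polymerase II, with su(Hw), an insulator protein, at 500 bp and a signal of 195, and 2 summits between CG8545 and dgt5 at 499 bp, with signals of 202 and 161. Just outside it were Meics with ssp2 at 501 bp (162), Ptpmeg with mth at 502 bp (210) and asRNA:CR44892 with svr at 502 bp (297).

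How often a divergent promoter held a summit was counted over gaps, that is, neighbouring start sites of different genes on opposite strands, facing away from each other, at most 500 bp apart and with no TSS between. Of 2313 such gaps 654 held an IDR summit, a background of 28.3%. These gaps accounted for 694 members, since 40 gaps held 2 summits, a median of 204 bp apart. The other 35 members had a further TSS of the same strand between the pair of genes.

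Occupancy differed with the width of the gap, with the largest change near 200 bp (the plot of occupied gaps by width). Gaps wider than 200 bp held a summit in 567 of 1349 cases (42.0%, interval 39.4 to 44.7), against 87 of 964 gaps of 200 bp or less (9.02%, interval 7.29 to 11.01). In the reduced lists of replicates 1, 2 and 3 the share was 41.2%, 40.99% and 40.6% of the wide gaps, against 11.5%, 6.12% and 9.44% of the narrow ones. Both sets of values stood far apart in every replicate, with a difference of 31.9 ± 2.66 percentage points (SD, n = 3; exact sign-flip permutation p = 0.25, the smallest possible). The dividing width of 200 bp was chosen after the shares had been seen.

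Within the wide gaps width made little difference. The share was 40.7% above 200 and up to 250 bp, 43.7% at 251 to 300 bp, 41.8% at 301 to 350 bp, 44.4% at 351 to 400 bp, 41.5% at 401 to 450 bp and 38.5% at 451 to 500 bp, and all these intervals overlapped. Below 200 bp the share was 15% at 151 to 200 bp, 10.8% at 101 to 150 bp, 8.87% at 51 to 100 bp and 0.948% at up to 50 bp. In steps of 20 bp the change fell close to 200 bp: 9.30% of gaps of 161 to 180 bp held a summit, 19 of the 95 gaps of 181 to 200 bp did, 38.4% of those above 200 and up to 220 bp and 39.2% of those of 221 to 240 bp. A narrow gap also offers less room for a summit. When summits up to 100 bp beyond either start site were counted too, the shares were 43.6% of wide and 18.4% of narrow gaps.

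**Figure D2:**
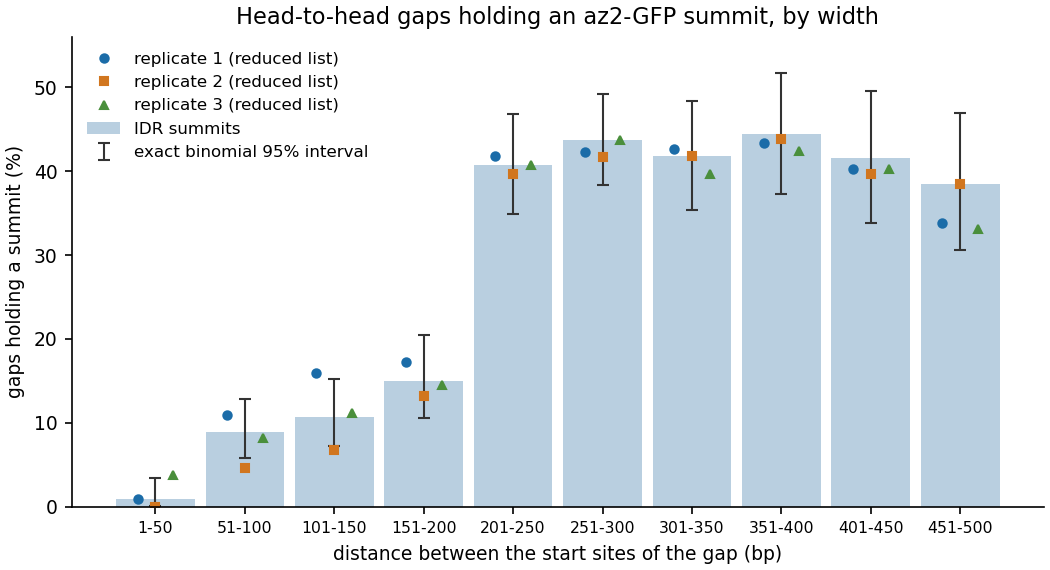
Share of head-to-head gaps that hold a summit (%) by distance between the start sites (bp, bins of 50 bp). Bars are IDR summits with exact binomial 95% intervals, and markers are the reduced lists of the 3 replicates; the bars are at most 15% up to 200 bp and at least 38.5% above.

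The 90 members in gaps of 200 bp or less had a median signal of 210, against 283 for the 639 in wider gaps. Median signal also rose from below to above 200 bp, but in wider gaps it did not hold its level as occupancy did. In steps of 50 bp, from the narrowest, the median was 186, 184, 215 and 268 up to 200 bp. Above 200 bp it was 332, 310, 277, 274, 223 and 248. Members in gaps of 401 to 450 bp and 451 to 500 bp thus had a lower median than those in gaps of 151 to 200 bp. The smallest gap with a member was that of kraken and CG4291, at 38 bp, with a signal of 228. The strongest narrow gap belonged to Mnat9 and CG1792, described above.

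Gaps between a pair of protein-coding genes held a summit in 624 of 1897 cases (32.9%), gaps of a protein-coding and an ncRNA gene in 24 of 291 (8.25%), and gaps of a pair of ncRNA genes in 2 of 51 (3.92%). The order was the same in gaps wider than 200 bp, at 47.8% of 1137, 12.5% of 144 and 6.90% of 29. Among the large chromosome arms the X stood lowest. Of its 341 gaps 18.8% held a summit, against 24.3% on 2R, 27.3% on 2L, 33.3% on 3L and 34.6% on 3R. In the reduced lists the X had 19.4%, 18.8% and 18.2% in replicates 1, 2 and 3, below the 4 large autosomal arms in each of them, of which 2R was next with 25.9%, 21.3% and 24.3%. In gaps wider than 200 bp the X was at 30.6% and 2R at 36.6%, with overlapping intervals (24.2 to 37.6 and 30.7 to 42.9), while 3R was at 50.9%. The 76 members on the X had a median signal of 215, against 276 to 295 on the 4 large autosomal arms. They were 7.27% of the 1046 IDR peaks of the X, against 12.9% to 15.1% on those arms. Males and females were pooled, and no value was adjusted here for the copy number of the X. The cause of the difference was not tested. Chromosome 4 held 13 gaps, of which 2 had a summit.

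Over all members, summits lay more often toward the middle of the gap than near its ends, though not in the widest gaps. Their distance to a start site is limited by the rule that chose them. The median distance to the nearest TSS was 88 bp (quartiles 54 and 121 bp, range 1 to 238 bp), in gaps with a median width of 301 bp. Divided by the width of the gap, the distance had a median of 0.312, on a scale where 0 is the nearest TSS and 0.5 the midpoint. In the reduced lists of replicates 1, 2 and 3 this median was 0.293, 0.338 and 0.296. At 449 members (61.6%, interval 58.0 to 65.1) the summit was in the middle part of the gap, above 0.25. In gaps above 200 and up to 250 bp the median distance was 79 bp and the median position 0.345, and in gaps of 451 to 500 bp they were 129 bp and 0.265. The median position was 0.258 at 351 to 400 bp and 0.256 at 401 to 450 bp. In gaps wider than 350 bp it was thus close to 0.25, the middle of the scale. Of the 729 member summits 49 lay in an annotated exon of any gene, on either strand, and 113 inside any gene body. The rule takes summits upstream of the nearest TSS and so favours places outside transcripts. No such share of other peaks is given beside these counts.

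**Figure D3:**
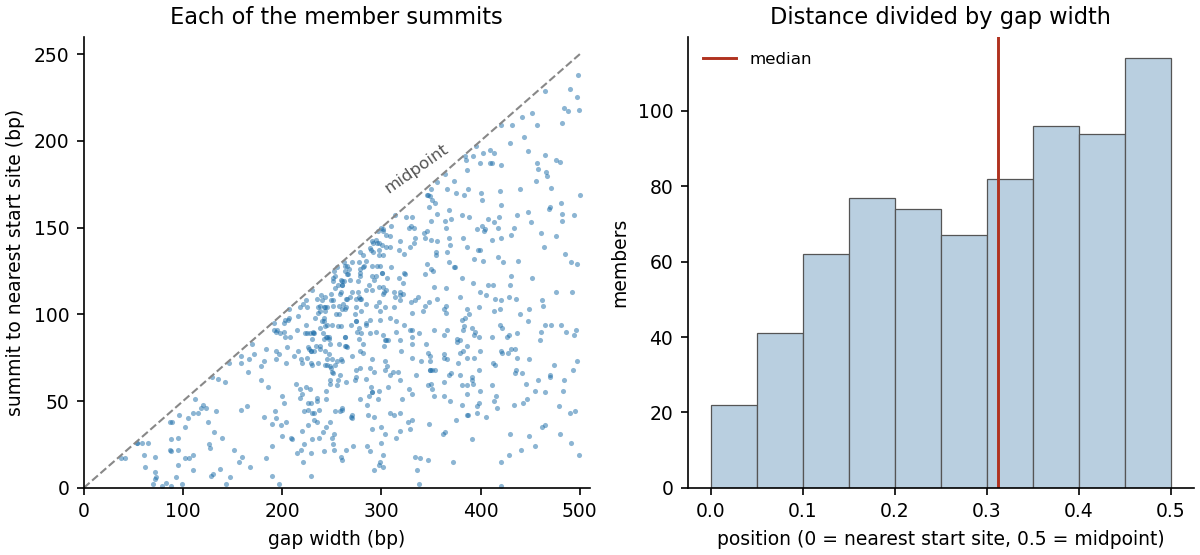
Left, distance from each member summit to the nearest TSS (bp) against the width of the gap (bp), with the midpoint as a dashed line above which no summit can lie; right, number of members by that distance divided by the width. More members lie above 0.25 (449) than at or below it (280), and the median (red line) is 0.312.

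The strongest members were the most central. The top quartile of members by signal (438 to 2932) had a median position of 0.345 and a median distance of 95.5 bp, and the bottom quartile (134 to 182) had 0.252 and 68 bp. In the top quartile 96.7% of members were covered by all 3 reduced lists, and in the bottom one 25.7%. Since the reduced lists are cut at the number of IDR peaks, weak members are near the edge of each list by construction.

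Sequence around the summits was searched for 18 fixed motifs, each given as 1 or more words, on both strands, in windows that reached 100 bp to either side. Motif 7 was found at 227 members (31.1%, interval 27.8 to 34.6), against 17.2% of other upstream peaks (15.3 to 19.2) and 15.5% of windows at the midpoint of the 1659 gaps without a summit (13.8 to 17.3). The background over all IDR peaks was 12.6%. Other upstream peaks lay further from their nearest TSS, at a median of 181 bp against 88 bp, and 1014 of the 1501 were within 250 bp. Windows at members thus reach a start site more often. For none of the words was the contrast with other upstream peaks in these windows matched for that distance. In replicates 1, 2 and 3 it was at 30.7%, 29.8% and 31.4% of peaks in divergent promoters, against 16.8%, 16.1% and 15.9% of other upstream peaks. The difference to other upstream peaks was 14.3 ± 0.94 percentage points and that to gaps without a summit 15.1 ± 1.21 (SD, n = 3; exact sign-flip permutation p = 0.25 for each, the smallest possible), with the members higher in 3 of 3 replicates.

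The ZIPIC word AGGGNTG, for the zinc finger protein ZIPIC, was at 124 members (17.0%), against 10.2% of other upstream peaks, 9.40% of gaps without a summit and a background of 7.73% of IDR peaks. Of the 124, 89 also had Motif 7, and in 78 of them a match of one overlapped a match of the other, so the 2 counts are not independent. The DRE was at 88 members (12.1%), against 4.66% of other upstream peaks, 10.1% of gaps without a summit and a background of 3.23%. The GAGA word GAGAG, for the GAGA factor Trl, ran the other way, with 100 members (13.7%), against 22.8% of other upstream peaks, 17.6% of gaps without a summit and a background of 20.9%. The word CGATA, bound by BEAF-32, was at 46.6% of members, against 32.2% of other upstream peaks and a background of 27.1%. It was at 46.8% of gaps without a summit, so its excess over other upstream peaks was shared by these gaps. In those of them wider than 200 bp it was at 34.5%. Against gaps without a summit, narrow ones included, the DRE differed by 1.43 ± 1.74 percentage points (SD, n = 3; exact sign-flip permutation p = 0.5), which is within the spread of the replicates. In such gaps wider than 200 bp the DRE was at 3.96%, ZIPIC at 4.22%, Motif 7 at 7.67% and GAGAG at 16.0%. Windows at the midpoint of wide gaps reach a start site less often than those at members.

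Among the other words were those of classical core promoters. The TATA box word TATAAA was found at 44.03% of members, against 38.04% of other upstream peaks, 34.4% of gaps without a summit and 40.7% of such gaps wider than 200 bp. The last share is inside the members' interval (40.4 to 47.7). TATAAA was counted anywhere in the window on either strand, not at a set distance from a start site. No share was matched for base composition. The initiator word TCAGT, which surrounds the start site of many focused promoters, was at 27.02% of members, against 33.1%, 34.5% and 30.9% of the same sets. Relative to other upstream peaks the replicates gave differences of 5.40 ± 0.70 percentage points for TATAAA and -5.68 ± 1.68 for TCAGT (SD, n = 3; exact sign-flip permutation p = 0.25 each, the smallest possible). At 385 members none of Motif 7, ZIPIC, DRE and the Motif 1 word GGTCACAC was found, a count given without that of the other sets.

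Most Motif 7 matches lay beside the start site rather than at the summit. The centre of its 272 matches in the members' windows was a median of 54.5 bp from the summit and 30.5 bp from the nearest TSS. The match was on the strand of that TSS in 195 cases, on the opposite strand in 74, and 3 read alike on both strands. Of all matches 50 (18.4%) were within 25 bp of the summit, and 63 were beyond the summit, away from the nearest TSS. Within 50 bp of the summit Motif 7 was found at 14.1% of members, against 8.99% of other upstream peaks and 8.80% of gaps without a summit. The most frequent words were CATCTCTA with 45 matches, CAGCCCTG with 34, CAGCACTG with 33 and CATCACTA with 28.

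Because a window around a summit reaches the start site more often than one at the midpoint of a wide gap, the comparison was repeated around the start sites themselves, a choice made after the positions had been seen. Motif 7 lay within 60 bp of either TSS in 269 of the 567 wide gaps with a summit (47.4%, interval 43.3 to 51.7), against 163 of the 782 wide gaps without one (20.8%, interval 18.05 to 23.9). In narrow gaps it did so in 40 of 87 with a summit (46.0%), against 199 of 877 without (22.7%). The difference in wide gaps was 23.8, 26.3 and 26.6 percentage points in replicates 1, 2 and 3, and that in narrow gaps 18.8, 24.1 and 26.0, so gaps with a summit held it more often in both classes of width. Over the whole stretch from TSS to TSS, 42.3% of wide gaps with a summit held Motif 7, against 19.1% of those without.

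Counted from the motif, 432 wide gaps had Motif 7 within 60 bp of a start site, and 62.3% of these held a summit (interval 57.5 to 66.9), against 32.5% of the 917 that lacked it (29.5 to 35.6). The mean over the reduced lists of the replicates was 60.3 ± 0.88% with the motif and 31.8 ± 0.79% without (SD, n = 3 each). In narrow gaps the shares were 16.7% with it and 6.48% without. A narrow gap with Motif 7 was thus still less often occupied than a wide gap without it.

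**Figure D4:**
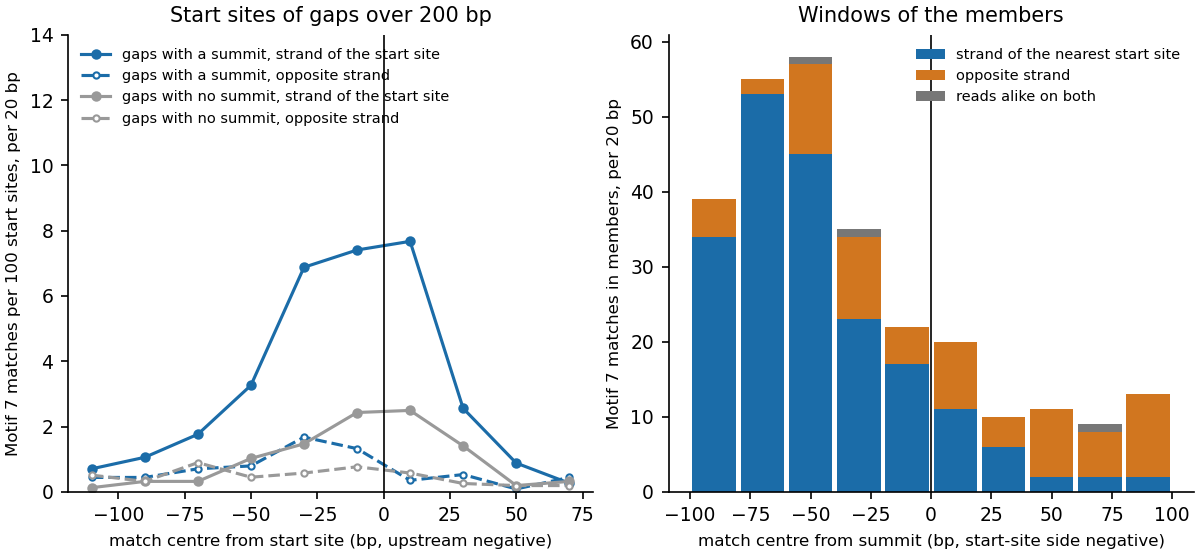
Left, Motif 7 matches per 100 start sites, in bins of 20 bp, around the start sites of gaps wider than 200 bp with a summit (blue, 1134 start sites) and without (grey, 1564 start sites), on the strand of the start site (solid) and on the opposite strand (dashed). Right, number of matches in the members' windows by distance from the summit (bp, side of the nearest TSS negative), which reach 100 bp to either side; the blue line at left is highest at 7.67 matches between 0 and 20 bp, and the bars at right are highest between -60 and -40 bp.

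Around these start sites most matches had one orientation. From 60 bp upstream to 40 bp downstream of the TSS, wide gaps with a summit held 27.8 matches per 100 start sites on the strand of the gene and 4.67 on the opposite strand, and wide gaps without a summit held 8.82 and 2.62. Motif 7 was near the nearest TSS of 237 members (32.5%), near the partner's TSS of 191 (26.2%) and near both in 79 (10.8%). At other upstream peaks it was near the nearest TSS in 14.6%, an interval (12.8 to 16.5) that does not reach that of the members (29.1 to 36.0).

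The other words showed smaller differences around the start sites of wide gaps. ZIPIC was found in 26.6% of those with a summit, against 11.5% of those without, and the DRE in 23.1%, against 13.2%. GAGAG was found in 18.7%, against 25.2%, and CGATA, the word bound by BEAF-32, in 64.2%, against 50.8%. The sign of each was the same in the 3 replicates. In the order named, the differences were 14.7 ± 0.71, 8.54 ± 1.29, -6.46 ± 0.84 and 11.7 ± 1.10 percentage points (SD, n = 3, exact sign-flip permutation p = 0.25 each, the smallest possible). In narrow gaps GAGAG was at 20.7% with a summit and 20.5% without around the start sites, and over the whole stretch it was higher with a summit, at 16.1%, than without, at 9.81%.

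**Figure D5:**
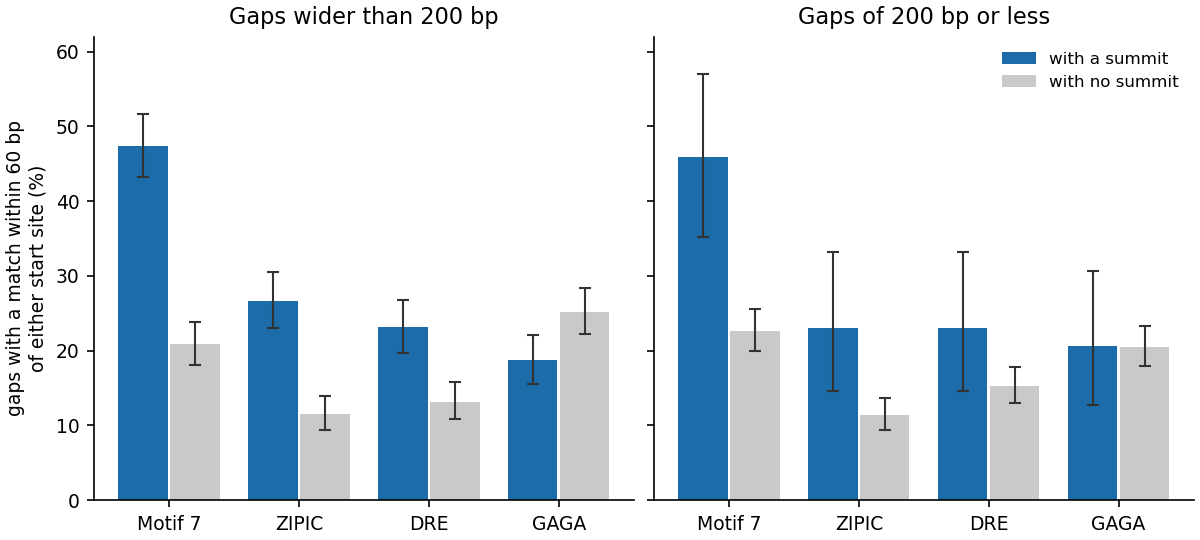
Share of head-to-head gaps (%) with a match to Motif 7, ZIPIC, DRE or GAGA (the word GAGAG) within 60 bp of either start site, for gaps with a summit (blue) and without (grey), in wide gaps (left) and narrow gaps (right), with exact binomial 95% intervals. Motif 7 is at 47.4% against 20.8% in wide gaps and at 46.0% against 22.7% in narrow gaps.

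Motif 7 was not more frequent at the strongest members. Members with it had a median signal of 266, and those without it 279. It was found at 2 of the 15 highest members, at 7 of the 50 highest, at 21 of the 100 highest and at 31.1% of all. By quartile of signal, from the highest, it was at 28.02%, 31.9%, 33.0% and 31.7%. The DRE and the shorter word CGATA, bound by BEAF-32, were rarer at strong members: the DRE was at 6.59%, 13.2%, 15.4% and 13.1% and CGATA at 34.1%, 45.1%, 53.3% and 54.1% of the same quartiles. Every DRE word holds CGATA. Members with the DRE had a median signal of 225, and those without it 280.3. All these shares are from windows around the summit. Summits of the top quartile lay further from the nearest TSS than those of the bottom one, at medians of 95.5 and 68 bp. Shares around the start sites are not given by quartile.

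The windows of members were AT-rich, with a mean GC content of 33.5%, against 35.1% at other upstream peaks, 37.0% in gaps without a summit and 33.4% in those of them wider than 200 bp. GC content thus differed from that of gaps without a summit where narrow gaps were included and was close to it where they were not. The 10 words of 8 bases most in excess at members of 2L and 3L over gaps without a summit were all made of A and T. The first, AATAAATA, was at 19.2% of members, against 10.7% of gaps without a summit there, and on the other arms at 12.7%, against 9.19%; it was at 13.3% of all gaps without a summit wider than 200 bp. ATATTTAA was at 14.7%, against 6.45%, and on the other arms at 13.2%, against 7.53%.

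Read by gene, 4613 genes stood at a head-to-head gap, and 1343 of them (29.1%) had a summit in it. This background counts genes of all biotypes, including ncRNA genes, whose gaps were seldom occupied. Gaps between a pair of protein-coding genes stood higher, at 32.9%. Members with a gene of at least 1 of 28 functional lists numbered 214 (29.4%), and 22 had a listed gene on both sides, and in 0 of these did both genes come from the same list. In 351 members at least 1 gene was known only by a CG or CR number. For these counts of members no share over all gaps is given, so they are not set against a background.

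Lists of protein synthesis differed among themselves, with 3 above the share of all genes and 2 below it in the IDR list. Of 39 cytosolic ribosomal protein genes at such gaps 22 had a summit (56.4%, interval 39.6 to 72.2), led by RpL34b with CG8132 (799 in the IDR list, ranks 349, 265 and 398) and RpS20 with CG17271 (603). Of 53 mitochondrial ribosomal protein genes 26 did (49.1%, interval 35.1 to 63.2), led by mRpS10 and mRpS23. Among aminoacyl-tRNA synthetase genes, which charge tRNAs, 11 of 21 did, and IleRS with Hem had the highest signal (874, ranks 362, 241 and 258). The count was 5 of 22 for translation factors, with eIF4EHP, a repressor of cap-dependent translation, and CG18428 first (1274, ranks 82, 128 and 93). It was 5 of 20 for tRNA modification, with Tcs5 and Elp6. The intervals of translation factors and tRNA modification (7.82 to 45.4 and 8.66 to 49.1) included the share of all genes. In the reduced lists of the replicates tRNA modification was above that share, at a mean of 33.3 ± 2.89% against 28.4 ± 1.11% of all genes (SD, n = 3 each). It was close to the 32.9% of gaps between a pair of protein-coding genes in the IDR list.

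Transcription and chromatin gave 9 of 19 RNA polymerase genes, led by Polr2B with 140up (807, ranks 319, 326 and 331), 10 of 23 general transcription factor genes, led by Brf with sds22 (882), and 6 of 17 Mediator genes, led by MED27 with elm (877, ranks 304, 222 and 292) and MED30 with Rev1 (763). Among spliceosome genes 10 of 24 had a summit, with Sf3b6 and Tnpo first (494). Polycomb and Trithorax genes were 5 of 13, led by brm, the ATPase of a chromatin remodeller, with Arl1 (1102, ranks 141, 151 and 178). Insulator and architectural protein genes were 4 of 11, led by Cp190, a cofactor of insulator proteins, with CG4338 (1210.0, ranks 166, 108 and 106), followed by M1BP, which binds Motif 1, with CG8202 (629).

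Membranes and organelles included the highest share of any list with more than 10 such genes, 8 of 13 genes of GPI anchor synthesis (61.5%, interval 31.6 to 86.1), with PIG-G and PIG-F first. The lists were chosen with earlier results of these data known, so this place among them is a description only. Counts were 9 of 19 for ESCRT and endosome genes, with CHMP2B and then Vps33B and Fur1 (1280.0, ranks 100, 86 and 122), 10 of 19 for transport from the endoplasmic reticulum to the Golgi, with alphaCOP and CG13919 first (1163, ranks 161, 147 and 110), and 7 of 13 for the vacuolar ATPase, with Vha16-5 first (533). Peroxisome genes were 5 of 10, led by Pex6, whose partner is the general transcription factor gene Taf5 (563). Nuclear pore and transport genes were 8 of 20, led by Nup160 with Csl4, a subunit of the exosome (913, ranks 253, 252 and 223). Genes of oxidative phosphorylation were 13 of 39, led by ND-MWFE with TppII (594), and mitochondrial import genes 1 of 5, Tim10 with Ppcdc (220).

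Cell cycle and replication genes had a summit in 15 of 34 cases, led by Cdc16, of the anaphase-promoting complex, with orb (741). Among DNA repair genes it was 10 of 19, led by Irbp with mgr (596), then mus312 with mrva (540), whose summit was in no peak of replicate 1. Proteasome genes were 6 of 24, with low signals, Rpn6 with ave first (174, ranks 4205, 3334 and 8036). Chaperones were 6 of 11, with Hsc70-5 and CG8531 first (391), ubiquitin ligase and F-box genes 5 of 19, with Fbxl4 and Dus2 first (816), and the list of ribosome biogenesis and exosome 5 of 17, where 1 of the 5 is Rrp1, a DNA repair nuclease that the symbol search took in. No member flanked a gene of chemosensory receptors and odorant binding (0 of 27, which allows a share of up to 12.8%, the upper bound of the exact interval), a cuticle protein gene (0 of 7) or a segmentation or Hox gene (0 of 2).

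Counts in wide gaps alone were also taken. At gaps wider than 200 bp a summit was found for 17 of 22 cytosolic and 23 of 31 mitochondrial ribosomal protein genes, 8 of 11 synthetase genes and 8 of 9 genes of GPI anchor synthesis, against 42.5% of all genes at such gaps. That share again counts all biotypes, and gaps of this width between a pair of protein-coding genes were at 47.8%. At proteasome genes it was 5 of 14, at genes of oxidative phosphorylation 11 of 22, at genes of the vacuolar ATPase 5 of 10, at mitochondrial import genes 0 of 3 and at chemosensory genes 0 of 15. The vacuolar ATPase and mitochondrial import genes thus had no higher share in wide gaps than in all gaps (7 of 13 and 1 of 5). Lists were searched by gene symbol, and the shares are counts beside the background, with no test of a list.

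Outside the IDR list weaker peaks remained. Of the 1659 gaps without an IDR summit 224 (13.5%) held the summit of a peak of the pooled list that a peak of each whole replicate list covered. The absence of an IDR summit therefore says that no peak passed the authors' threshold there, not that the gap was free of signal.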

How the data were processed

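Chromatin immunoprecipitation with an antibody against GFP was done by the authors on 3 biological replicates of embryos that express az2-GFP. The deposited dm6 peak lists were used: 1 relaxed list per replicate (30000, 22372 and 30000 peaks), 1 from pooled reads (27145) and 1 thresholded by IDR (5786). Per the labels they were made against a control alignment. The peak caller and IDR threshold are not given in the sources used here. Each deposited peak has a signal value, a score that is never negative and was taken as linear, and an other value, the offset of the summit from the peak start in bp, which gave the summit position. Peak lists hold no read counts, so depth is unknown, and intervals cover counting error over peaks or gaps only.

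Start sites were those of all Ensembl transcripts (BDGP6.54, release 115; transposable element entries left out) on 2L, 2R, 3L, 3R, 4 and X. Among equally near start sites, 1 that made the summit a member was taken (1 case). Sequence came from the RefSeq copy of dm6, with coordinates from 1, and gaps on 2R were left out of the search for sequences to print. A replicate covered an IDR peak if any of its peaks contained the summit. Shares carry exact (Clopper-Pearson) 95% intervals. Replicate values were compared by an exact two-sided sign-flip permutation test over the 3 replicates, and p-values measure the spread between these replicates only. Named were the 15 members of highest signal covered by all 3 whole lists, the top 2 of each gene list, the 3 of lowest signal, the 3 of largest spread among the 250 highest and the 3 on either side of the 500 bp limit; others are named as chosen after their values were seen, or as the single member of a count or end of a range. The members, words and gene lists were chosen with earlier results of these data known. Functions were tested on simulated data. Python 3.11.15, numpy 2.4.6, pandas 2.3.3 and scipy 1.17.1 were used. Alternatives changed the start sites, the gap limit, the peaks, the list length, the coverage rule and the motif window.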

Additional observations from a re-analysis of the deposited data

How the results depend on the processing

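Of 106 recomputed values 51 moved by less than the spread or, for the tested percentile difference, kept their sign and side of the threshold, 54 moved by more, and 1 reversed. The difference in median percentile to other upstream peaks was -0.053 over the stronger IDR peaks, those above the median signal, 0.148 with a gap limit of 1000 bp, and 0.168 to 0.892 when a replicate was left out; the cause was not tested. The share of IDR peaks in divergent promoters was 10.9% with the 5'-most TSS of each gene, 6.27% with a gap limit of 300 bp, 17.2% with 1000 bp, 14.9% among the stronger peaks and 12.95% to 13.5% without 1 replicate, when only peaks covered by both others were kept. Members covered by all replicates were 97.7% among the stronger peaks, 96.6% with lists of 2 times the length, 97.5% with whole lists and 82.0% to 84.2% by the other 2 replicates. Gaps holding a summit were 32.9% with protein-coding TSSs, 21.9% at 300 bp, 17.2% with the stronger peaks, 33.1% with 100 bp beyond the start sites and 23.3% to 24.0% without 1 replicate. The position in the gap was 0.345 at 300 bp and 0.287 at 1000 bp. Motif 7 was at 35.8% of members at 300 bp, 29.0% at 1000 bp, 29.9% among the stronger peaks, 14.1% within 50 bp of the summit, 46.6% in whole peaks, 30.9% to 32.3% without 1 replicate and, in a window chosen after seeing the data, 32.5% within 60 bp of the nearest TSS. Fewer or more peaks, gaps or bases enter these settings by construction. Peak lists without counts limit all of this to presence and rank. No paired analysis was possible because the replicates form 1 group with no second group to pair them with; the sign-flip tests compared sets of peaks or gaps within each replicate.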
